A study of Mus musculus with 4 samples.

Results

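The genes described here are 8 factors and regulators of the bone marrow stroma, of 19938 genes measured: the secreted or membrane-bound ligands Kitl, Angpt1 and Il7, the leptin receptor Lepr, the intermediate filament gene Nes, and the transcription factors Ebf1, Ebf3 and Foxc1. They were taken by name, with earlier results of these data known, and each had a single probe set. Levels came from 4 whole-transcript arrays of cultured C57BL/6 mouse cells, 1 array per group. The 4 groups comprised embryonic stem (ES) cells, osteoblasts freed by enzymes from the skull caps of newborn mice and pooled from the final digestions, and mesenchymal stem cells (MSC) that adhered to plastic after flushing of femur and tibia marrow, kept either in plain serum medium or in the same medium with basic fibroblast growth factor (bFGF) at 1 ng/ml. All but the ES cells, whose growth conditions the labels do not give, were grown in medium with fetal calf serum. The MSC were selected by adhesion alone, and the labels do not give the age or number of the marrow donors. The series set out to compare the effect of bFGF on marrow MSC, with the other cultures as controls. With 1 array a group there is no replicate check, and no difference given here was tested.

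In the marrow, blood stem cells sit next to stromal cells that wrap the vessels and supply them with growth factors. Kitl (stem cell factor) activates the receptor Kit and is needed to keep blood stem cells. Angpt1 activates the receptor Tek (Tie2) on endothelium and stem cells, and Il7 drives early lymphocyte growth through Il7r. In adult marrow these stromal cells are known for Lepr and, in part, for Nes, and the transcription factors Ebf1, Ebf3 and Foxc1 help to hold them in their niche-supporting state. Ebf1 is also a founding factor of the B cell lineage.

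A stretch of reference sequence at the gene start shows what the promoters of the genes that set the main contrasts look like. RefSeq windows of 300 bases, from 250 before to 50 after the start (GRCm38.p6), were found for 6 of the 8 genes in 8 windows; Angpt1 and Il7 had none. Shown are Kitl, which separated the MSC from the controls, Nes, which separated the MSC cultures from each other, and Foxc1, as an example of the transcription factors. They lie at chr10:100015571-100015870, chr3:87970843-87971142 and chr13:31806396-31806695, all on the plus strand, and capitals mark a TATAAA match.
Kitl: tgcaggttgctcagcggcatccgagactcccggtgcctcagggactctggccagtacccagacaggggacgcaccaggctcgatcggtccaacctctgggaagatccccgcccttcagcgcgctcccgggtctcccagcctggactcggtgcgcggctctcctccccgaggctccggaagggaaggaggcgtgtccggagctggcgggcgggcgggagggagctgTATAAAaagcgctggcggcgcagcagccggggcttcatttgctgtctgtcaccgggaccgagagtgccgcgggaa
Nes: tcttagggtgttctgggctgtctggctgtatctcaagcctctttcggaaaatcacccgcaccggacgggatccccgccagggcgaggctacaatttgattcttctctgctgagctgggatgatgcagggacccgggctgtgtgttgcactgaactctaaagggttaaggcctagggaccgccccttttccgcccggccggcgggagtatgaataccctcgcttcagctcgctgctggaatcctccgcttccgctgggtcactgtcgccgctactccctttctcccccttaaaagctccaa
Foxc1: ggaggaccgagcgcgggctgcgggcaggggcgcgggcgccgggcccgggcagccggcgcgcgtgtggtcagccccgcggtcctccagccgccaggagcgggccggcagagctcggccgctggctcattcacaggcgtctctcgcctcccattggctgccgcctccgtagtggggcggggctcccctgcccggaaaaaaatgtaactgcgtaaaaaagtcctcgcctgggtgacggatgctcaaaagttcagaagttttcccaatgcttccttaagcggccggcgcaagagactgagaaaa
The windows of Kitl, Nes and Foxc1 held 28, 18 and 32 CpG dinucleotides, against a median of 7 (quartiles 3 and 20) over 32851 RefSeq windows. The 2 windows of Ebf1 held 9 and 17, the 2 of Lepr 18 and 13, and that of Ebf3 held 46. TATAAA, searched on both strands, occurred 25 bases before the start of Kitl and in none of the other 7 windows; 13.6% of all windows hold it. The palindromic EBF consensus motif and the forkhead motif GTAAACA, each searched on both strands, were in none of the 8 windows, and 0.904% and 3.65% of all windows hold them.

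The levels are log2 values, so a difference of 1 is 2-fold. A floor was set at the median of each array's probe sets with 1 gene symbol, which was 6.46 in both control arrays, 6.29 in MSC without bFGF and 6.32 in MSC with bFGF. Genes counted as higher or lower are those that differed by 2-fold or more and lay above the floor in the higher array. To judge size, each difference was set beside the central 95% of the differences of 1194 odorant and pheromone receptor genes (olfactory and vomeronasal families), few of which such cultures should transcribe. The larger end of that spread was 0.97 between the MSC arrays and 0.82 to 1.09 between the other pairs. It describes noise at low signal, not variation between cultures. Of the 8 genes, 6 lay above the floor in osteoblasts, 4 in each MSC array and 1 in ES cells.

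The cultures also differed in markers of other cells. All 15 measured macrophage markers lay above the floor in osteoblasts, 14 in MSC with bFGF, 12 in ES cells and 9 in MSC without bFGF, with list medians of 11.16, 9.77, 7.42 and 6.78. The summed macrophage signal, on the log2 scale, was 15.26, 13.89, 12.32 and 11.03 in the same order. The fibroblast and marrow stroma markers, of which 13 were measured, had 13 above the floor in osteoblasts, 12 in ES cells, 10 in MSC with bFGF and 8 in MSC without bFGF. Both MSC arrays had Pdgfra, a stromal growth factor receptor, above the floor, but the surface marker Thy1 was under it at 6.04 without and 5.54 with bFGF. The osteoblast array had 2 of 9 measured osteoblast markers above the floor, Dlx5 (7.49) and Col11a2 (7.45), but not Sp7, Ibsp or Alpl. Dlx5 was above the floor on that array only. ES cells and MSC without bFGF also had 2 of the list, Alpl and Col11a2, and MSC with bFGF had 1, Col11a2. Medians of this list were 5.58 in osteoblasts, 5.86 in ES cells, 5.77 in MSC without bFGF and 5.52 in MSC with bFGF. Of 14 pluripotency markers 9 lay above the floor in ES cells and at most 2 elsewhere. None of 9 measured B lineage markers did on any array.

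**Figure D1:**
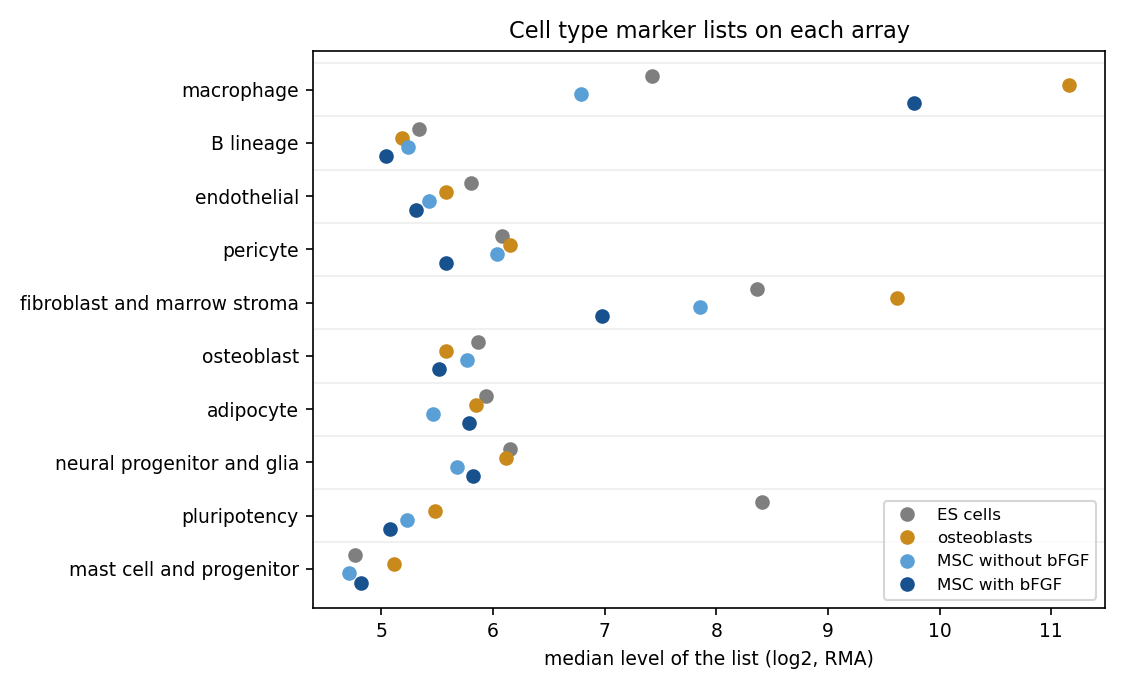
Median level (log2) of each list of cell type markers on each of the 4 arrays, 1 point per array. Macrophage markers were highest in osteoblasts (11.16) and next in MSC with bFGF (9.77). The osteoblast, B lineage, endothelial, pericyte, adipocyte, neural and mast cell lists had medians under the floor on all arrays.

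Kitl was the only one of the 3 ligands among the 8 genes with signal above the floor in marrow MSC. It stood at 8.73 in MSC without bFGF and 9.15 in MSC with bFGF, against 6.17 in osteoblasts and 6.21 in ES cells. Both MSC arrays were high and both controls were under the floor, at nearly the same level. Kitl was thus higher than in osteoblasts by 2.98 with bFGF and 2.57 without, which is 7.90-fold and 5.93-fold, and higher than in ES cells by 2.94 and 2.53. Because the lower level is under the floor in each of these comparisons, the folds depend on background. Between the MSC arrays the difference was 0.41 (1.33-fold), inside the spread of the receptor genes. Kitl was the only one of the 8 genes counted as higher than in osteoblasts or than in ES cells in either MSC array. Of all genes above the floor, 7.5% and 8.17% were counted as higher than in osteoblasts with and without bFGF, and 11.3% and 10.4% as higher than in ES cells. The macrophage medians given above differed between these arrays too, and their part in the result was not tested.

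Angpt1 and Il7 had signal above the floor on the osteoblast array only, and were at background in marrow MSC. Angpt1 stood at 6.88 in osteoblasts and at 4.15 in ES cells, 4.19 in MSC without bFGF and 4.18 in MSC with bFGF. Osteoblasts alone were above the floor, and the other 3 arrays lay within 0.04 of each other. The difference from osteoblasts was -2.70 in MSC with bFGF and -2.69 in MSC without. Both MSC levels are far under the floor and that in osteoblasts is a little above it, so the size depends on background. Il7 had the widest range of the 8 genes, 3.78. It stood at 6.99 in osteoblasts, 3.73 in ES cells, 3.21 in MSC without bFGF and 3.25 in MSC with bFGF. Osteoblasts were again the only array above the floor, and the MSC arrays were the lowest. The difference from osteoblasts was -3.74 with bFGF and -3.78 without, sizes that again depend on background, and between the MSC arrays it was 0.03. With the floor raised to the 75th percentile of each array neither gene was counted. Since these are bulk cultures, fewer cells of a type and less RNA per cell cannot be told apart. The array with Angpt1 and Il7 signal was also the one with the highest macrophage median (11.16) and the highest stromal median (9.62); the part of these cells in the result was not tested.

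**Figure D2:**
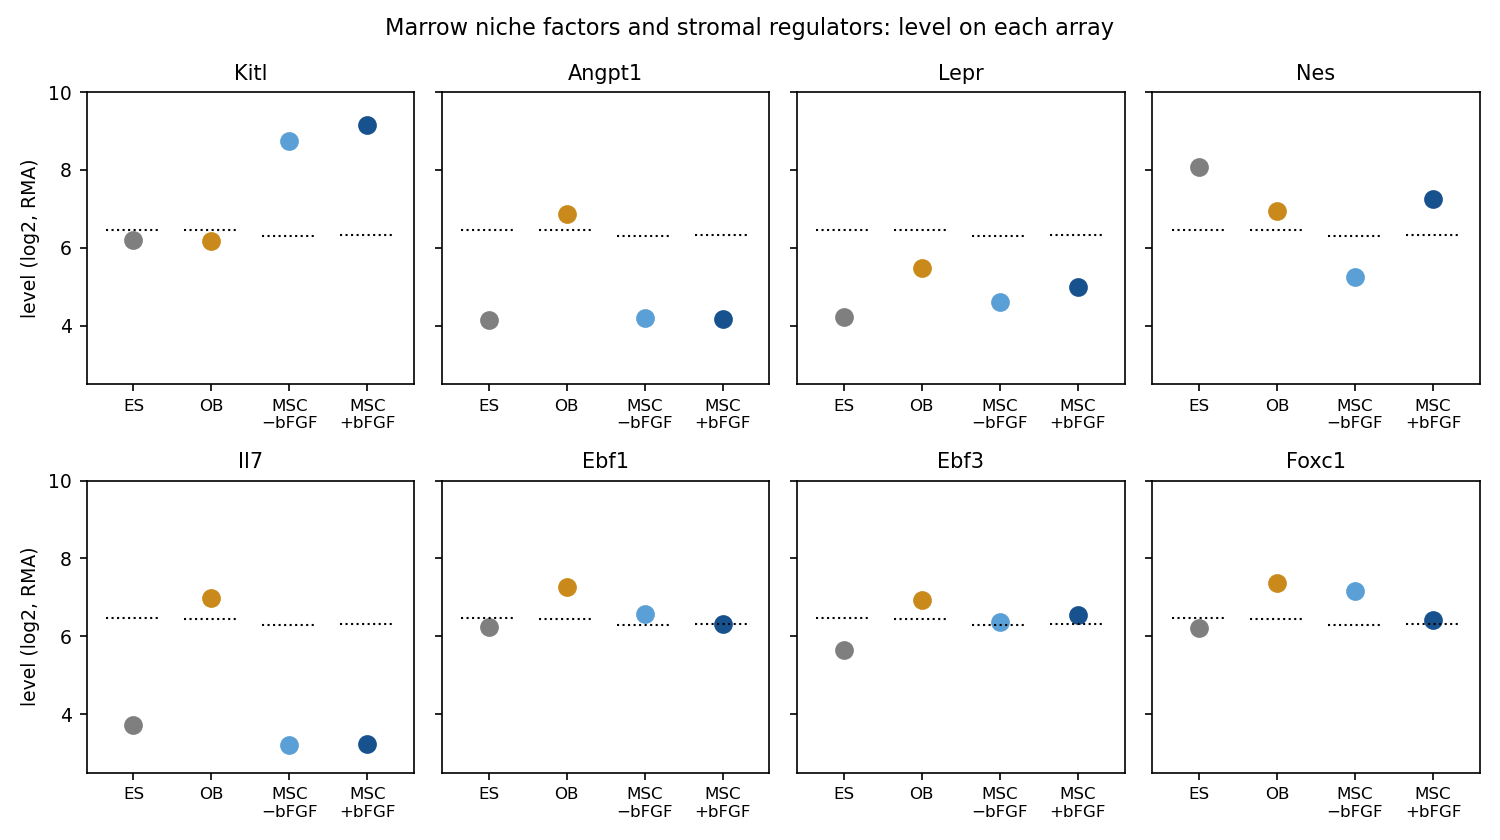
Level (log2) of each of the 8 genes on the arrays of ES cells (ES), osteoblasts (OB) and MSC without and with bFGF, with 1 point per array and each array's floor as a dotted line. Kitl was high in both MSC arrays (8.73 and 9.15), Angpt1 and Il7 only in osteoblasts (6.88 and 6.99), and Lepr was under the floor throughout.

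Receptors of these ligands did not have the same distribution as the ligands. Kit, the receptor of Kitl, stood at 8.05 in ES cells and under the floor at 5.38 in osteoblasts, 5.34 in MSC without bFGF and 5.71 in MSC with bFGF. The cultures with Kitl signal thus had Kit at background, and the culture with Kit signal had Kitl under the floor. Il7r, the interleukin 7 receptor chain, stood at 8.38 in MSC with bFGF and 7.34 in osteoblasts, against 4.64 in MSC without bFGF and 4.92 in ES cells. Osteoblasts were the 1 array above the floor for both Il7 and Il7r. The arrays with Il7r signal were those with all or nearly all macrophage markers above the floor (15 and 14 of 15); their part in it was not tested. Tek, the receptor of Angpt1, was under the floor on every array, between 4.23 in MSC with bFGF and 5.44 in osteoblasts.

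**Figure D3:**
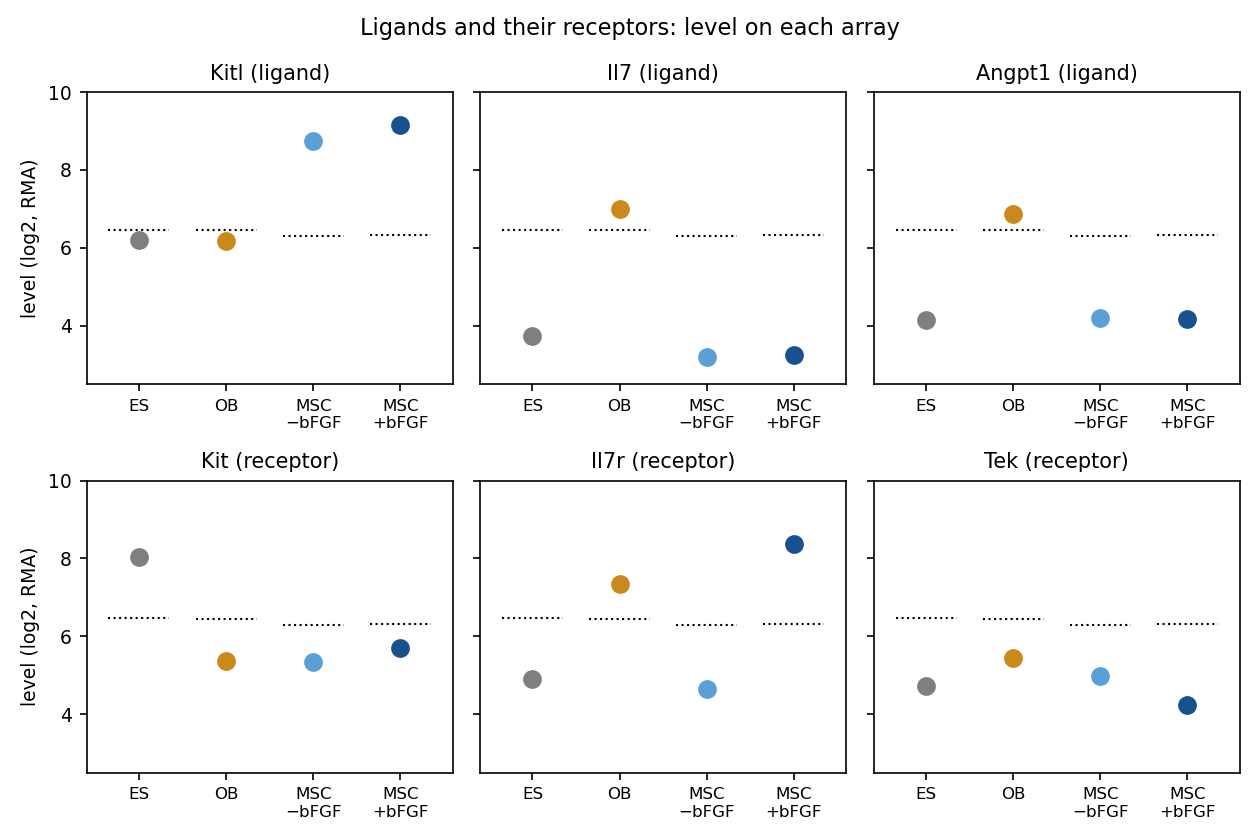
Level (log2) of Kitl, Il7 and Angpt1 in the upper row and of their receptors Kit, Il7r and Tek in the lower row, with 1 point per array (ES cells, osteoblasts, MSC without and with bFGF) and the floor dotted. Kit was above the floor in ES cells only (8.05), Il7r in osteoblasts and MSC with bFGF (7.34 and 8.38), and Tek on no array.

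Lepr, which marks the perivascular stroma of adult marrow, was under the floor on all 4 arrays. It stood at 4.24 in ES cells, 5.49 in osteoblasts, 4.61 in MSC without bFGF and 4.99 in MSC with bFGF. The order ran from osteoblasts down to ES cells, and no neighbours in it differed by more than the spread of receptor genes. The largest difference, 1.25 between osteoblasts and ES cells, was outside that spread but below the floor, so it was not counted. Its ligand gene Lep was also under the floor throughout, between 4.11 and 4.38.

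Nes was the only one of the 8 genes counted as different between the MSC cultures, where 4.09% of all genes above the floor were counted as higher with bFGF and 0.467% as lower. It stood at 5.26 in MSC without bFGF and 7.26 in MSC with bFGF, with 6.94 in osteoblasts and 8.08 in ES cells. MSC without bFGF stood apart at the bottom, under the floor; the other 3 arrays lay above it, and neighbours among them differed by 0.81 and 0.32, inside the spread of receptor genes. Nes was higher by 2.01 with bFGF (4.02-fold), a size that depends on background, and was not counted with the floor at the 75th percentile. In MSC without bFGF it was lower than in osteoblasts by a difference of -1.68 and than in ES cells by -2.82, while MSC with bFGF differed from these by 0.32 and -0.81. Of 15 macrophage markers 14 were also 2-fold or more higher with bFGF, with a median difference of 2.78; their part in the Nes difference was not tested. Endothelial cells and pericytes also make Nes. Endothelial markers had 0 of 12 above the floor in MSC with bFGF and 1 without, and pericyte markers had 1 and 0 of 10. The part of such cells in the Nes difference was not tested either. Of 14 other intermediate filament genes measured, 4 lay above the floor in this comparison and 0 were counted in either direction, which at the shares over all genes is no result about them. Vim stood at 12.30 with bFGF and 12.57 without.

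The 3 transcription factors had shallower profiles, all with osteoblasts at the top and ES cells at the bottom. Ebf1 stood at 7.26 in osteoblasts, 6.56 in MSC without bFGF, 6.31 in MSC with bFGF and 6.24 in ES cells. It was above the floor in osteoblasts and in MSC without bFGF, and was just under it (6.32) in MSC with bFGF. Ebf3 stood at 6.93 in osteoblasts, 6.55 in MSC with bFGF, 6.37 in MSC without bFGF and 5.65 in ES cells, above the floor in all but the ES cells. Foxc1 stood at 7.38 in osteoblasts, 7.15 in MSC without bFGF, 6.42 in MSC with bFGF and 6.21 in ES cells, likewise above the floor in all but the ES cells. For none of the 3 did neighbouring arrays in the order differ by more than the receptor spread. Among arrays further apart, MSC with bFGF against osteoblasts was outside that spread for Ebf1 (-0.96) and Foxc1 (-0.96). MSC with bFGF against ES cells was outside it for Ebf3 (0.89). Only the ends of the order were 2-fold apart: osteoblasts were higher than ES cells by 1.03 for Ebf1, 1.27 for Ebf3 and 1.16 for Foxc1, a comparison in which 12.3% of all genes above the floor were higher. These 3 were not counted with the floor at the 75th percentile, nor was Ebf1 once differences were centred on their median. With bFGF, Foxc1 differed by -0.73, Ebf1 by -0.26 and Ebf3 by 0.18, and none of these was counted. Ebf1 and Ebf3 are close paralogs, and how far their probes tell them apart was not tested. None of the B lineage markers was above the floor, including Pax5 and Cd79a, which Ebf1 helps to switch on in B cells.

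The 8 genes were also counted together for each pair of arrays. Between MSC with and without bFGF 5 of the 8 lay above the floor, 1 was counted as higher (Nes) and 0 as lower, where 4.09% of 10483 genes were higher and 0.467% lower. The median difference of the 8 was 0.11, against -0.06 over all measured genes. Against osteoblasts, MSC with bFGF had 7 of 8 above the floor, 1 higher (Kitl) and 2 lower (Angpt1 and Il7), where 7.5% of genes were higher and 9.71% lower. MSC without bFGF had 1 higher and 3 lower, the 3 being Angpt1, Il7 and Nes, where 8.17% were higher and 13.3% lower. The medians of the 8 were -0.72 with bFGF and -0.79 without, against -0.07 and 0.03 over all measured genes. Against ES cells, MSC with bFGF had 1 higher and 0 lower, where 11.3% of genes were higher and 10.6% lower, and MSC without bFGF had 1 higher (Kitl) and 1 lower (Nes), where 10.4% were higher and 11.8% lower. Osteoblasts had 5 of the 8 higher than ES cells (Angpt1, Il7, Ebf1, Ebf3 and Foxc1) and 1 lower (Nes). There 12.3% of all genes above the floor were higher and 8.83% lower. For MSC with bFGF, MSC without and osteoblasts against ES cells, 4, 5 and 6 of the 8 lay above the floor. The medians of the 8 were 0.14, 0.35 and 1.21 in that order, against 0.01, 0.08 and 0.07 over all measured genes. These comparisons share arrays, so they are not independent of each other.

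**Figure D4:**
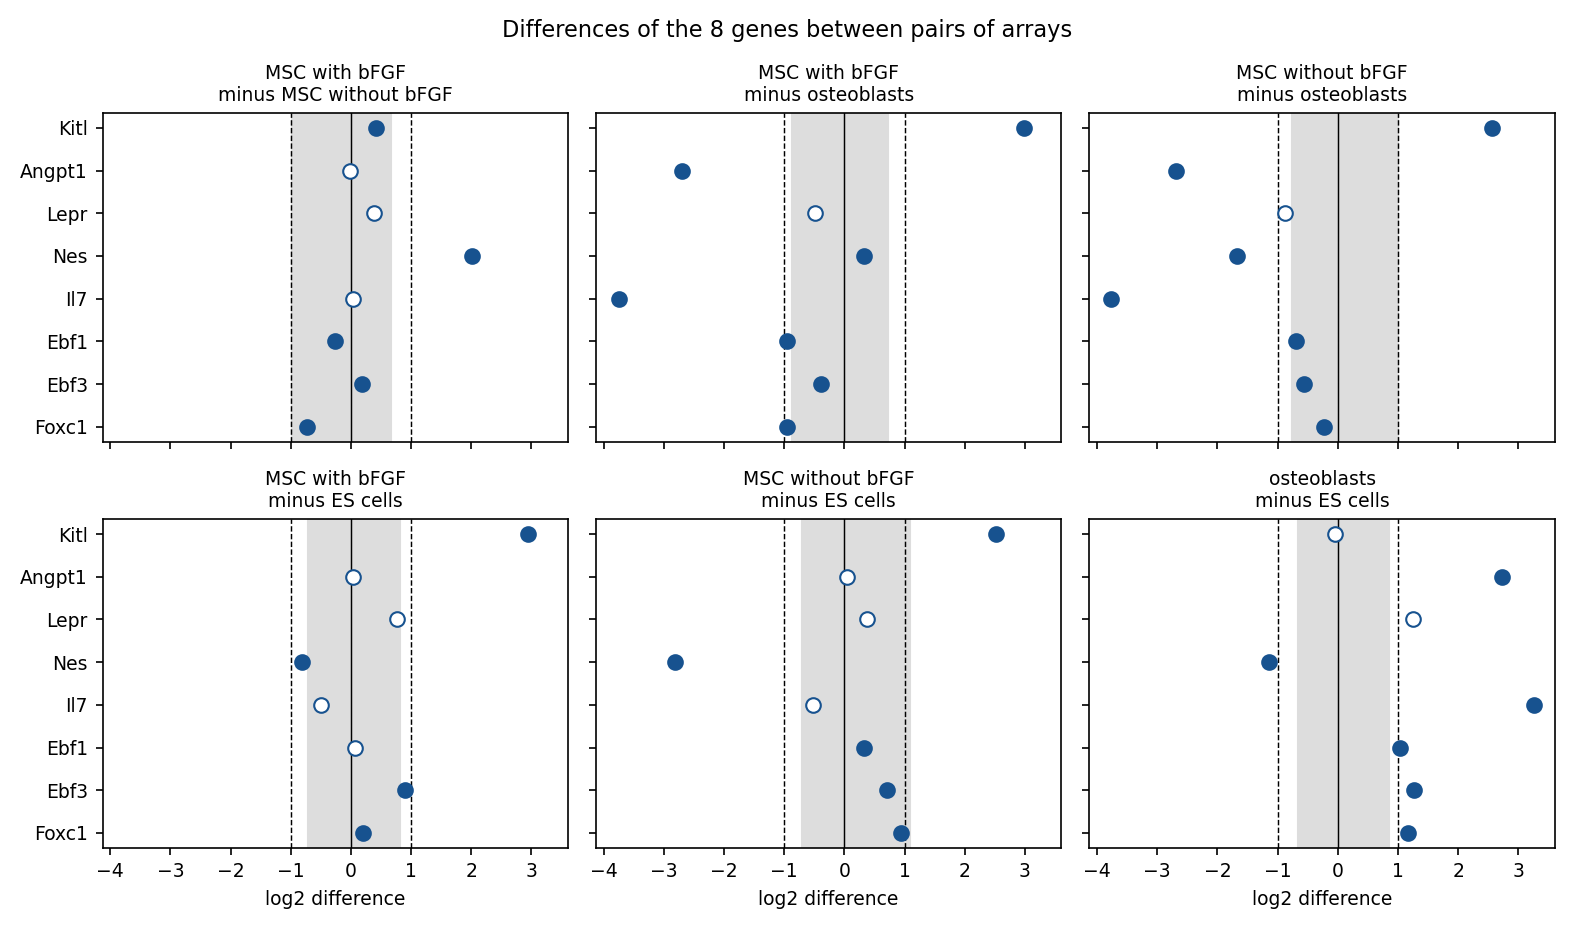
Log2 difference of each of the 8 genes between the arrays named above each panel. Filled points lay above the floor in the higher array and open points did not; dashed lines mark 2-fold, and the grey band is the central 95% of receptor genes. Only Nes, at 2.01, lies beyond 2-fold between the MSC arrays, and Kitl lies beyond it on the MSC side in all 4 comparisons with a control.

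Across the 4 arrays no pattern was shared by all 8 genes, but most were highest in osteoblasts. These were Angpt1, Lepr, Il7, Ebf1, Ebf3 and Foxc1, and all of them but Il7 were lowest in ES cells. For Angpt1 the ES cell level was nearly that of the MSC arrays, and Lepr was under the floor on all 4 arrays. Kitl was highest in MSC with bFGF and Nes in ES cells. The root mean square distance between 2 genes' log2 levels, each centred on its own mean over the 4 arrays, was smallest for Lepr and Ebf3 (0.13), both low in ES cells and highest in osteoblasts. Ebf1 and Foxc1 followed at 0.23, and the remaining pairs among Lepr, Ebf1, Ebf3 and Foxc1 lay between 0.27 and 0.40. Angpt1 and Il7 came after these, at 0.44. The largest distance was that of Kitl and Il7, 2.71.

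Few other genes lay near Kitl, Nes or Il7 by distance, and many lay near the transcription factors. Levels were centred but not scaled, so genes of small range have more near neighbours, and these counts do not measure shape alone. Ranges were 1.03 for Ebf1, 1.27 for Ebf3 and 1.16 for Foxc1. The median range was 0.84 over genes above the floor in 1 array or more. By the same distance over the 4 arrays, among 11191 other named genes, those most like Kitl were Cox7b2 (0.16), the surface glycoprotein gene Msln (0.18) and the T cell costimulatory receptor Tnfrsf9 (0.19), and 12 genes lay within 0.3. For Nes they were the lactate transporter Slc16a3 (0.27), the spindle gene Knstrn (0.27) and the monocyte attractant Ccl2 (0.28), and these 3 were the only ones within 0.3. For Il7 they were the collagen-binding integrin Itga11 (0.11), the leukotriene enzyme Alox5 (0.11) and the tendon gene Tnmd (0.18), with 10 within 0.3. For Angpt1 they were the membrane metalloproteinase Mmp16 (0.10), the interferon-induced Ifit3 (0.10) and the proton-sensing receptor Gpr65 (0.15), with 36 within 0.3. Ebf1, Ebf3 and Foxc1 had 1202, 1027 and 437 genes within 0.3, so their nearest genes say little; these were Ikbip, Atp6ap2 and the matrix gene Vit.

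Other niche ligands were divided between the cultures. Of 22 measured, 1 was higher with bFGF than without, Igf1 (insulin-like growth factor, 7.60 against 5.72), a call lost with the floor at the 75th percentile, and 0 were lower; the median was 0.01, against -0.06 over all genes. Set against osteoblasts, MSC with bFGF had 2 higher and 5 lower, with a median of -0.39 (-0.07 over all genes; 7.5% of genes were higher and 9.71% lower), and MSC without bFGF had 1 higher and 6 lower, with a median of -0.49 (0.03 over all genes; 8.17% higher and 13.3% lower). In each of these comparisons 13 of the 22 lay above the floor. Those higher were macrophage growth factors that act on the receptor Csf1r. Il34 was higher by 1.18 with bFGF and 1.78 without, and Csf1 by 1.02 with bFGF. Once differences were centred on their median, or a loess curve was removed, 1 ligand was higher and 6 were lower with bFGF, and Csf1 was no longer counted. Among those lower, the heparin-binding growth factor Ptn differed by -3.39 with bFGF and Igf1 by -4.47 without. Bmp4 differed by -2.47 and -1.90 with and without bFGF. The chemokine Cxcl12, which holds blood stem cells in the marrow, stood at 6.60 in osteoblasts, just above the floor, and under it at 6.32 in ES cells, 5.81 in MSC without bFGF and 5.75 in MSC with bFGF.

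Of 17 receptors and signalling partners of the niche ligands measured, set against osteoblasts, 3 were lower and 1 higher in MSC with bFGF, and 8 were lower and 0 higher in MSC without, with medians of -0.67 and -0.88 (-0.07 and 0.03 over all genes). In each comparison 12 of the 17 lay above the floor, and over all genes too more were lower than higher, 9.71% against 7.5% with bFGF and 13.3% against 8.17% without. Centring, or removing a loess curve, gave 0 higher and 5 lower with bFGF. The chemokine receptor Cxcr4 differed by -4.16 and -4.58, and Lifr, a receptor of the gp130 family, by -2.17 and -2.73. Il7r differed by 1.04 with bFGF, a call lost under both of these alternatives, and by -2.70 without. Between the MSC cultures Il7r was the 1 gene counted as higher, by 3.74, and 0 were lower. The median was 0.21, against -0.06 over all genes. There 11 of the 17 lay above the floor, and 4.09% of all genes above it were higher and 0.467% lower.

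A list of 24 other stromal transcription factors was set against osteoblasts in the same way. In MSC with bFGF 7 were lower and 2 higher, and in MSC without bFGF 5 were lower and 1 higher, with medians of -0.17 and -0.42 (-0.07 and 0.03 over all genes). In each comparison 18 of the 24 lay above the floor, and all genes leaned the same way, by the shares just given. The paired homeobox factor Prrx2 differed by -2.52 and -1.52, and Zfp521, a zinc finger partner of Ebf factors, by -2.01 and -2.30. Nfib, a nuclear factor I gene, was higher by 1.71 and 1.70. The 2 other Ebf genes, Ebf2 and Ebf4, were under the floor on every array. Foxc2, the close relative of Foxc1, stood at 7.22 in MSC without bFGF and 6.60 in MSC with bFGF. In osteoblasts it was just under the floor (6.44 against 6.46), and in ES cells it was under it at 5.90. Foxc2 differed from osteoblasts by 0.17 with bFGF and 0.78 without, and neither was counted. With bFGF against without, 1 factor was lower, Prrx2 (5.80 against 6.80), and 0 were higher. There 17 of the 24 lay above the floor, and 4.09% of all genes above it were higher and 0.467% lower. Prrx2 was at the threshold and was not counted with the floor at the 75th percentile, after centring, after loess or after repeated quantile normalization. Of the intermediate filament genes, MSC with bFGF had 2 lower than osteoblasts, Sync at -1.40 and Lmna at -1.10, and 0 of 14 passed 2-fold in MSC without bFGF. In each comparison 6 of the 14 lay above the floor. Of all genes above it, 7.5% were higher and 9.71% lower with bFGF, and 8.17% and 13.3% without.

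**Figure D5:**
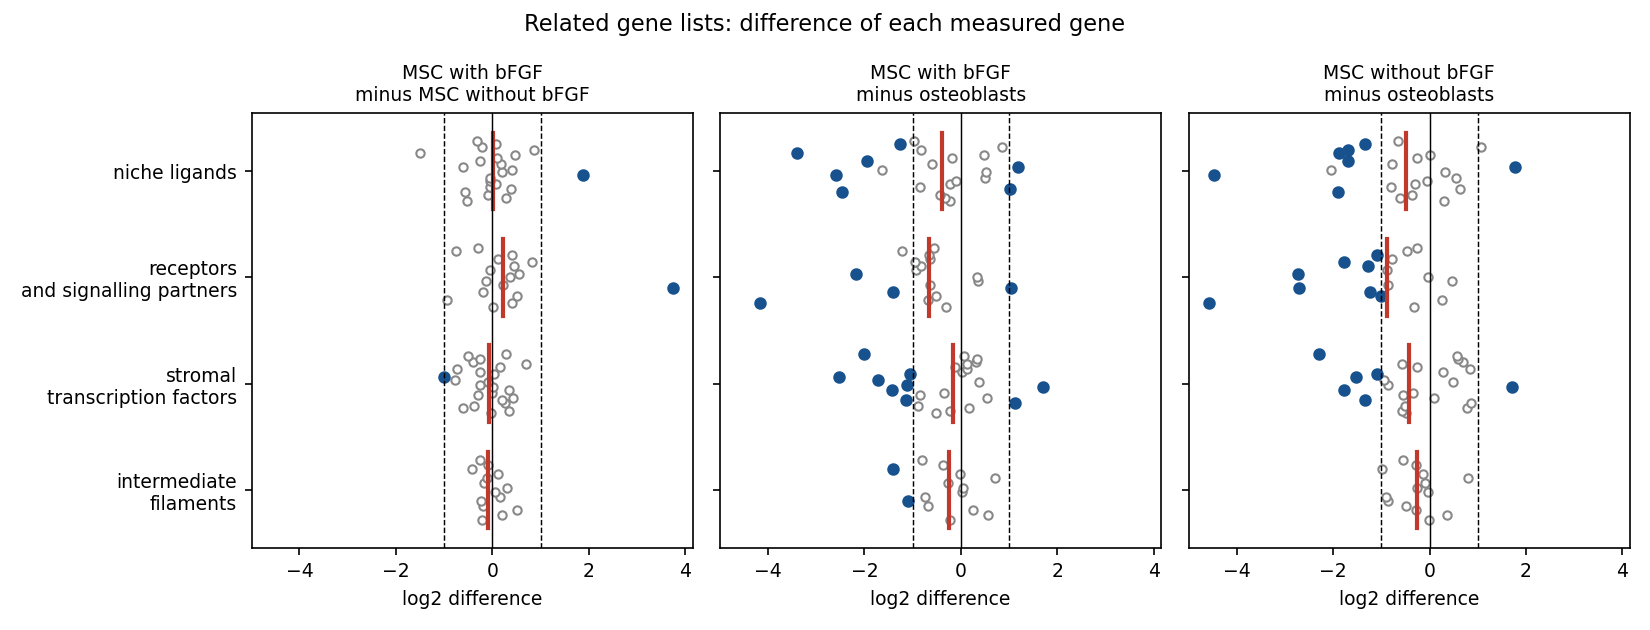
Log2 difference of each measured gene of the 4 related lists for the pairs of arrays named above each panel. Filled points are genes counted at 2-fold with the higher array above the floor, open points the others, red bars the list medians and dashed lines 2-fold. The far right point of the first panel is Il7r (3.74), and most filled points against osteoblasts lie on the lower side.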

How the data were processed

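The series holds 4 arrays, 1 each for ES cells, osteoblasts, MSC without bFGF and MSC with bFGF, of total RNA. The deposited values are log2 levels per probe set; the authors made them with Affymetrix Expression Console and RMA, per the submitters' processing notes, and the log2 scale was inferred from their range (1.77 to 13.83 in probe sets with 1 symbol). RMA equalises the distributions of arrays, so a general shift per cell would not show. Software versions and the build were not given in the sources used here. Arrays have no read depth, and precision is limited by their number.

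Of 35556 probe sets, GEO's platform annotation gave 21789 a single symbol, 1621 several and 12146 none; only the first were named. Matching 21698 by Entrez identifier changed 0 symbols. Each of 19938 genes took its probe set of highest mean. The 8 genes, the 4 related lists and the 10 marker lists (189 of 202 symbols measured; Adipoq, Lep and Sox2 are in 2 lists) were chosen with earlier results of these data known. From related lists at most the 3 largest differences each way past 2-fold were open to naming. For each of the 8 genes above the floor so were the 3 genes of most like pattern, leaving out predicted genes and receptor families. Cxcl12, Kit, Tek, Lep, Vim, Foxc2, Ebf2, Ebf4, Pdgfra, Thy1, Sp7, Ibsp, Alpl, Pax5 and Cd79a were named for their roles outside that rule. Dlx5 and Col11a2 were named outside it as the osteoblast markers above the floor in osteoblasts. The TATAAA search was added after the data were seen. Counting was checked on simulated data. Alternatives were averaging the probe sets of each gene, dropping the floor or raising it to the 75th percentile, 1.5-fold, centring, loess (span 0.3) and repeated quantile normalization. Python 3.11.15 was used, with pandas 2.3.3, numpy 2.4.6 and statsmodels 0.14.6.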

Additional observations from a re-analysis of the deposited data

How the results depend on the processing

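No paired analysis was possible because each group has 1 array. In all, 18 counts of genes past 2-fold (6 for the 8 genes, 12 for the related lists) were recomputed under 7 alternatives. Of 126 values, 97 stayed within 1.5 times the count reported. Totals alone were compared, so an exchange of genes or directions does not show. Averaging probe sets could not change the counts of the 8 genes, each of which has a single probe set.

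With a floor at the 75th percentile, the 8 genes gave 0 for MSC with against without bFGF (Nes was lost) and 1 (Kitl) for each MSC culture against osteoblasts. Osteoblasts against ES cells gave 1 (Nes). The calls of Angpt1, Il7 and the transcription factors as higher on the osteoblast array thus rest on the lower floor. At that floor niche ligands and stromal factors gave 0 each between the MSC cultures. Against osteoblasts it gave 1 intermediate filament gene and 5 stromal factors in MSC with bFGF, and 4 receptors and partners and 3 stromal factors in MSC without bFGF.

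At 1.5-fold the 8 genes gave 2 between the MSC cultures (Foxc1 added), 5 for MSC with bFGF against osteoblasts, and 3 and 4 for MSC with and without bFGF against ES cells. At 1.5-fold, niche ligands, receptors and stromal factors gave 3, 2 and 4 between the MSC cultures. Against osteoblasts it gave 4 intermediate filament genes and 10 receptors and partners with bFGF, and 3 intermediate filament genes and 13 stromal factors without.

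Centring gave 5 for MSC with bFGF against osteoblasts, adding Ebf1 and Foxc1 as lower, 1 intermediate filament gene for MSC without bFGF against osteoblasts and 0 stromal factors between the MSC cultures (Prrx2 lost). Loess gave 2 for MSC with bFGF against ES cells (Ebf3 added), 2 intermediate filament genes for MSC without bFGF against osteoblasts and 0 stromal factors between the MSC cultures. Repeated quantile normalization also gave 0 stromal factors there, and without a floor 2 niche ligands were past 2-fold between the MSC cultures. Centring moves all differences of a pair by the same amount, up to 0.12; for the other alternatives the cause was not tested.

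Of 48 differences of single genes, each under 4 alternatives, 7 values had another sign, all of Angpt1 or Ebf1 with a difference under 0.1 as reported. Averaging probe sets, among these 4, could not move a difference because each gene has a single probe set. The largest shift was 0.23.
With the mean of each gene's probe sets, 21 of the 21 genes of most like pattern were the same genes.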
